A study of Macaca fascicularis and Macaca mulatta and Papio anubis with 20 samples.

Results

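Macrophage-rich spots were the capture spots of *Macaca fascicularis* dorsal root ganglia in which transcripts of macrophage marker genes took the largest share of the spot. There were 563 of them among 11090 spots, and the remaining 10527 are called the other spots. Each spot had to lie under tissue and hold at least 1000 unique molecular identifiers (UMIs, each standing for 1 captured transcript). Its score was the summed UMIs of the marker genes per 10000 UMIs of the spot. A spot was macrophage-rich when its score was above 0 and reached the 95th percentile of its own section. The rule listed 7 markers, CD68, CD163, C1QA, C1QB, AIF1, TYROBP and CSF1R, of which 5 were found by symbol in the feature tables and C1QB and TYROBP were not. Both classes are small regions of tissue that can each hold several cells of different types, so a macrophage-rich spot is not a macrophage. A higher level of a transcript in a spot cannot be told apart as more cells of a type or more RNA per cell.

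The samples were fresh frozen dorsal root ganglia, the clusters of sensory nerve cell bodies beside the spinal cord, obtained from a primate supplier and cut at 10 µm with 100 µm between sections. RNA was captured on Visium slides after 12 min of permeabilization, and the sections were stained with haematoxylin and eosin. The 15 sections used came from 4 specimens, a female and a male of batch 1 (F1 and M1, 4 sections each), a female of batch 2 (F2, 4 sections) and a male of batch 2 (M2, 3 sections, its section 3 not analysed here). No treatment, disease or age was labelled, and nothing labelled states that sections of 1 title code came from 1 animal, so the p-values measure the spread between these specimens.

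Macrophages are tissue phagocytes that clear debris and dying cells, present antigen and exchange signals with their neighbours. In sensory ganglia they lie around neurons and their satellite glia, along vessels and in the connective tissue, and they are known to respond to nerve injury. They depend on the receptor CSF1R, whose ligands CSF1 and IL34 can be made by the cells around them.

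Each section gave between 14 and 62 macrophage-rich spots, with a median of 36. The score at the 95th percentile ranged from 9.56 to 19.7 marker UMIs per 10000, and its median over sections was 13.4. The lowest macrophage-rich score of a section ran from 9.60 to 19.7 and the highest score of its other spots from 9.56 to 19.6, so the classes met at the threshold without a gap. The scores rest on few molecules: the median macrophage-rich spot of a section held 2 to 4 marker UMIs. Of the 563 spots, 1 spot (0.178%) held 1 marker UMI and 173 (30.7%) held 2. A single marker was seen in 17.1% of them, 2 markers in 45.8%, 3 in 26.1%, 4 in 8.35% and all 5 in 2.66%. Among the other spots, between 14.0% and 46.6% of a section held no marker UMI. The score is a share, and by count some other spots held as many marker UMIs as macrophage-rich ones. The highest count of a section's other spots ran from 7 to 18 (median 13), against 7 to 20 (median 10) in its macrophage-rich spots.

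The markers chose the spots, so their levels are given as a description without a test. CD163, the scavenger receptor for haemoglobin bound to haptoglobin, stood at 231 CPM (UMIs per 1000000 UMIs) in the macrophage-rich spots of F1, 272 in M1, 1049 in F2 and 1139 in M2, against 51.9, 59.8, 178 and 227 in the other spots. CSF1R stood at 614, 519.8, 335 and 228 CPM, against 97.3, 93.3, 55.4 and 42.1. C1QA, a chain of the complement starter C1q, stood at 404, 398, 389 and 176 CPM, against 78.1, 69.4, 61.3 and 36.3. Summed over the sections of a specimen, CD163 was higher and CSF1R lower in F2 and M2 than in F1 and M1, in both classes of spot. The sums of F1 and M1 mixed sections that differed in both genes, as given below. The levels of the 2 classes did not overlap across specimens for any of these 3 genes. AIF1, a calcium-binding protein of macrophages, ran from 94.9 CPM in M2 to 259.9 in M1, against 15.9 in F2 to 48.4 in F1. CD68, a glycoprotein of macrophage endosomes and lysosomes, ran from 71.2 CPM in M2 to 219.96 in F2, against 10.2 in M2 to 30.5 in F2. In all 15 sections each of the 5 markers was above its level in the other spots.

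The makeup of the marker signal differed between the specimens of the 2 batches, and also between sections of F1 and of M1. CD163 gave 13.9% of the marker UMIs of macrophage-rich spots in F1 and 17.1% in M1, but 49.6% in F2 and 66.7% in M2. CSF1R gave 37.0%, 32.7%, 15.8% and 13.3%. The other spots had nearly the same makeup, with CD163 at 17.0%, 20.6%, 52.3% and 68.0%. Over all spots under tissue of F1, CD163 had 202 and 525 UMIs in sections 1 and 2, but 116 and 69 in sections 3 and 4. CSF1R had 123 and 288 there, against 881 and 540. In M1 CD163 had 412 and 640 UMIs in sections 1 and 2, but 67 and 117 in sections 3 and 4. CSF1R had 284 and 436 there, against 428 and 849. These are counts, not shares, and the sections differed in their total UMIs. The other spots of sections 1 to 4 held 1447176, 4141514, 6332233 and 3500922 UMIs in F1. In M1 they held 3341366, 4440230, 3417694 and 6685772. Batch, the pair of specimens and the Space Ranger version went together, so the differences between batches cannot be assigned to one of them. The differences between sections of F1 and of M1 lay within a specimen, batch and Space Ranger version, and their cause was not tested. How much of the difference between batches came from sections 3 and 4 of F1 and M1 was not tested either.

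**Figure D1:**
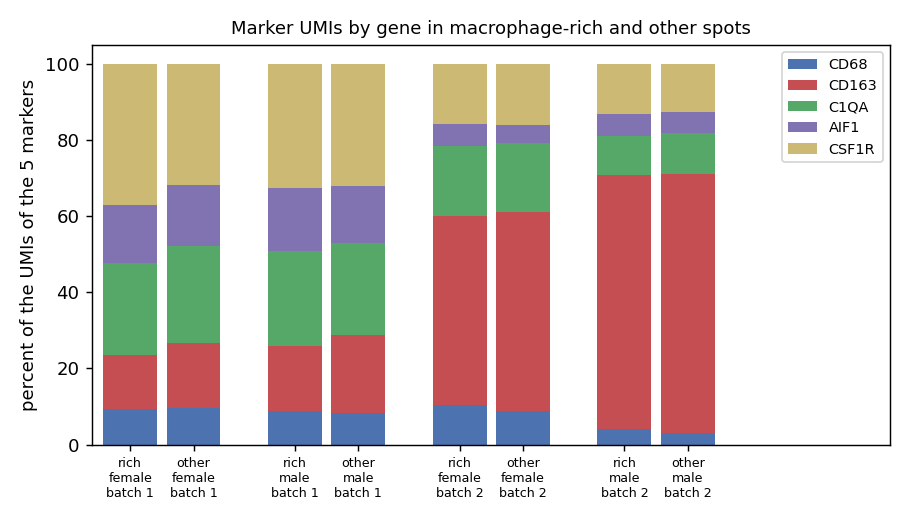
Stacked bars give the percent of marker UMIs that each of the 5 markers contributed, for macrophage-rich (A) and other (B) spots of the 4 specimens (F, female; M, male; 1 and 2, batch). Summed over the sections of a specimen, CD163 makes up 13.9% and 17.1% of the macrophage-rich bars in batch 1 and 49.6% and 66.7% in batch 2. Sections within F1 and within M1 differed in CD163, which the bars do not show.

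Macrophage-rich spots were shallow. Their median depth, averaged over the sections of a specimen, was 2200.1 UMIs in F1, 1859 in M1, 1538 in F2 and 1952 in M2, against 4831, 3854, 4702 and 2399 UMIs in the other spots. The mean was 1887 ± 274 UMIs (SD, n = 4) against 3946 ± 1119, lower in 4 of 4 specimens and in 14 of 15 sections. An exact two-sided permutation test over specimens gave p = 0.125, the smallest that 4 specimens allow. Between 40.0% and 94.3% of a section's macrophage-rich spots lay in the lowest of 3 depth groups of that section. The spot's UMIs are the denominator of the score, so depth enters the rule itself. For that reason most results are followed by their value in depth-balanced classes, for which the spots of a section were split into 10 groups by UMIs and the 95th percentile was taken in each group. These classes were chosen after seeing the data. They held 638 macrophage-rich spots, 370 of which were shared with the whole-section classes (65.7% of the 563 and 58.0% of the 638), and their depth differed by -50.3 UMIs on average (exact permutation test, p = 0.5).

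**Figure D2:**
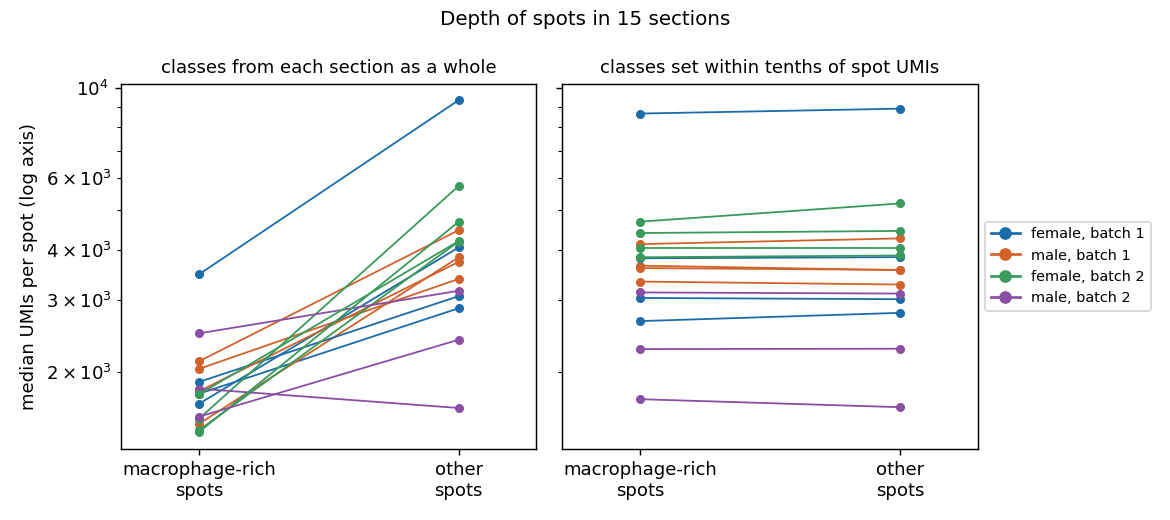
Points give the median UMIs per spot of each of the 15 sections on a log axis, with macrophage-rich spots and other spots joined by a line, for whole-section classes and for classes balanced over 10 depth groups. Macrophage-rich spots lie lower in 14 of 15 sections in the whole-section classes, and in 8 of 15 after balancing.

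On the slide the macrophage-rich spots were scattered, with some gathered together. Of the neighbouring positions of a macrophage-rich spot, 8.62% in F1, 8.49% in M1, 7.52% in F2 and 3.18% in M2 were macrophage-rich too, against 4.86%, 4.68%, 4.70% and 4.96% around the other spots. M2 went against the other specimens, the mean difference was 2.16 percentage points, the share was higher in 8 of 15 sections, and the exact permutation test gave p = 0.25. Without section 1 of F2 the difference was 1.28 percentage points, and without section 1 of F1 it was 1.31. In the depth-balanced classes the values were 11.4%, 6.48%, 5.39% and 7.93%, against 5.87%, 5.50%, 5.78% and 6.13%, with F2 the one specimen not higher. Spots at the tissue edge made up 27.5% ± 12.0 (SD, n = 4) of macrophage-rich spots and 23.7% ± 7.04 of the other spots, a difference within the spread between specimens (exact permutation test, p = 0.5).

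**Figure D3:**
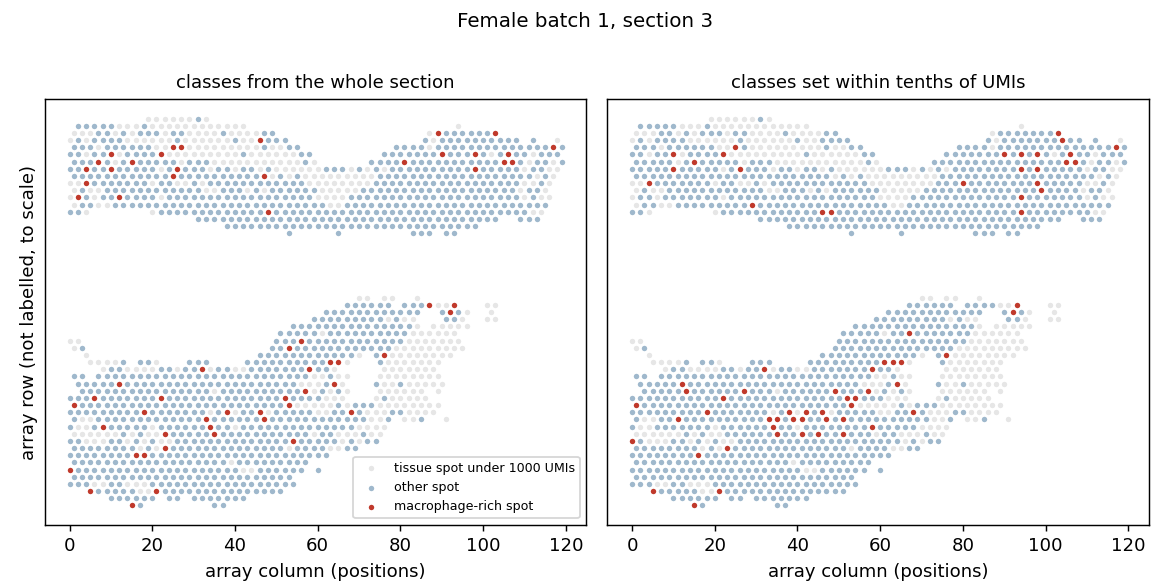
Array positions (columns across, rows down) of the tissue spots of F1 section 3, with macrophage-rich, other and shallower spots in separate colours, in whole-section classes (left) and classes balanced over 10 depth groups (right). The 62 whole-section macrophage-rich spots are spread over the section, with some side by side.

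Each marker was also measured in spots it had not chosen. When the other 4 markers set the classes, C1QA stood at 229 CPM in F1, 193 in M1, 175 in F2 and 79.8 in M2, against 82.5, 74.5, 64.9 and 40.4 in the other spots. The levels of the classes overlapped through M2, but C1QA was higher in 4 of 4 specimens and 13 of 15 sections, and its log2 fold change was 1.37 (SE 0.13, Benjamini-Hochberg adjusted p = 1.0e-10 by the quasi-likelihood test of edgeR). In these classes 7.68% of 9874 genes were higher. In classes set by C1QA alone, where 6.2% of 9914 genes were higher, CSF1R was higher by 1.15 (SE 0.13; adjusted p = 5.2e-12 by the same edgeR test), CD163 by 0.87 (SE 0.12; edgeR adjusted p = 1.4e-08) and AIF1 by 1.15 (SE 0.19; edgeR adjusted p = 1.4e-06). AIF1 was higher in 3 of 4 specimens, with 14.97 CPM against 21.8 in M2. CD68 was higher by 0.93 (edgeR adjusted p = 0.0012), and this call was lost without F1 (0.88, adjusted p = 0.088) and without M1 (0.75, adjusted p = 0.12). With 3 depth groups the log2 differences were 1.17 for C1QA, 0.83 for CSF1R, 0.57 for CD163, 0.75 for AIF1 and 0.71 for CD68. Each of the 5 markers thus rose in spots chosen by others.

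Across the transcriptome, 9891 genes were tested outside the markers, and the edgeR test with the specimen as a block called 1337 of them (13.5%) at an adjusted p under 0.05, 757 higher (7.65%) and 580 lower (5.86%). Without F1 the count was 380 and without M1 it was 697. In the depth-balanced classes 738 of 9912 genes were called (7.45%), 471 higher (4.75%) and 267 lower (2.69%), with 340 without F1, 342 without M1 and 476 without F2. Of the whole-section calls, 374 higher genes were also higher in the depth-balanced classes, which is 49.4% of the former and 79.4% of the latter. For lower genes the 192 shared calls made up 33.1% and 71.9%. The levels of 4 specimens lay above those of the other spots without overlap for 250 genes (2.53%) and below for 444 (4.49%). ACTA2 and SFRP4, named because they were the 2 genes called in opposite directions, were higher in the whole-section classes and lower in the depth-balanced ones. The median log2 fold change over all genes was -0.01 in the whole-section classes and 0.00 in the depth-balanced ones.

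Most core macrophage genes were higher in macrophage-rich spots. Of 36 listed core macrophage genes 29 were found and 24 tested, of which 19 were higher, 0 were lower, and the median log2 fold change was 1.21. In the depth-balanced classes 16 of 25 were higher, with a median of 0.88. C1QC, the C1q chain that the rule did not use, stood at 1422 CPM in F1, 988 in M1, 897 in F2 and 636 in M2, against 508, 475, 279 and 375 in the other spots. The classes did not overlap, C1QC was higher in 15 of 15 sections, and the log2 fold change was 1.26 (SE 0.12; edgeR adjusted p = 1.5e-10), or 1.02 (SE 0.05) in the depth-balanced classes. FCER1G, the signalling chain shared by Fc receptors, stood at 391, 288, 203 and 171 CPM, against 144, 133, 76.0 and 86.6, a log2 fold change of 1.26 (SE 0.12) and 1.06 after balancing. It was higher in every specimen.

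The other core genes moved less evenly. CD14, the co-receptor for bacterial lipopolysaccharide, stood at 241 CPM in F1, 189.7 in M1, 10.2 in F2 and 61.7 in M2, against 74.8, 70.8, 11.8 and 46.6. The rise (log2 1.29, SE 0.17; 0.96 after balancing) was carried by 3 specimens and was not seen in F2, where CD14 was low in both classes. LYZ, the lysozyme gene, was higher by 1.07, and LAPTM5, a lysosomal membrane protein of blood cells, by 1.23, or 0.68 and 0.74 after balancing. VSIG4, a macrophage receptor for complement fragments, was higher by 1.63 and 0.99. MS4A7, CD53 and IFI30, the lysosomal thiol reductase used in antigen processing, were higher by 1.35, 1.50 and 1.59, and by 0.85, 0.97 and 0.88 after balancing. PTPRC, the leukocyte phosphatase CD45, and CYBB, the catalytic subunit of the phagocyte oxidase, were higher by 1.26 and 1.19 and by 1.07 and 1.01. Without F1 the calls of PTPRC (1.02), CYBB (1.12) and the cathepsin gene CTSS (0.79) were lost in the whole-section classes, and 9 of 23 core genes were called. ITGAX, DOCK2, CD86 and SLC11A1 did not pass the test in either form, with whole-section values from 0.27 to 0.93.

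**Figure D4:**
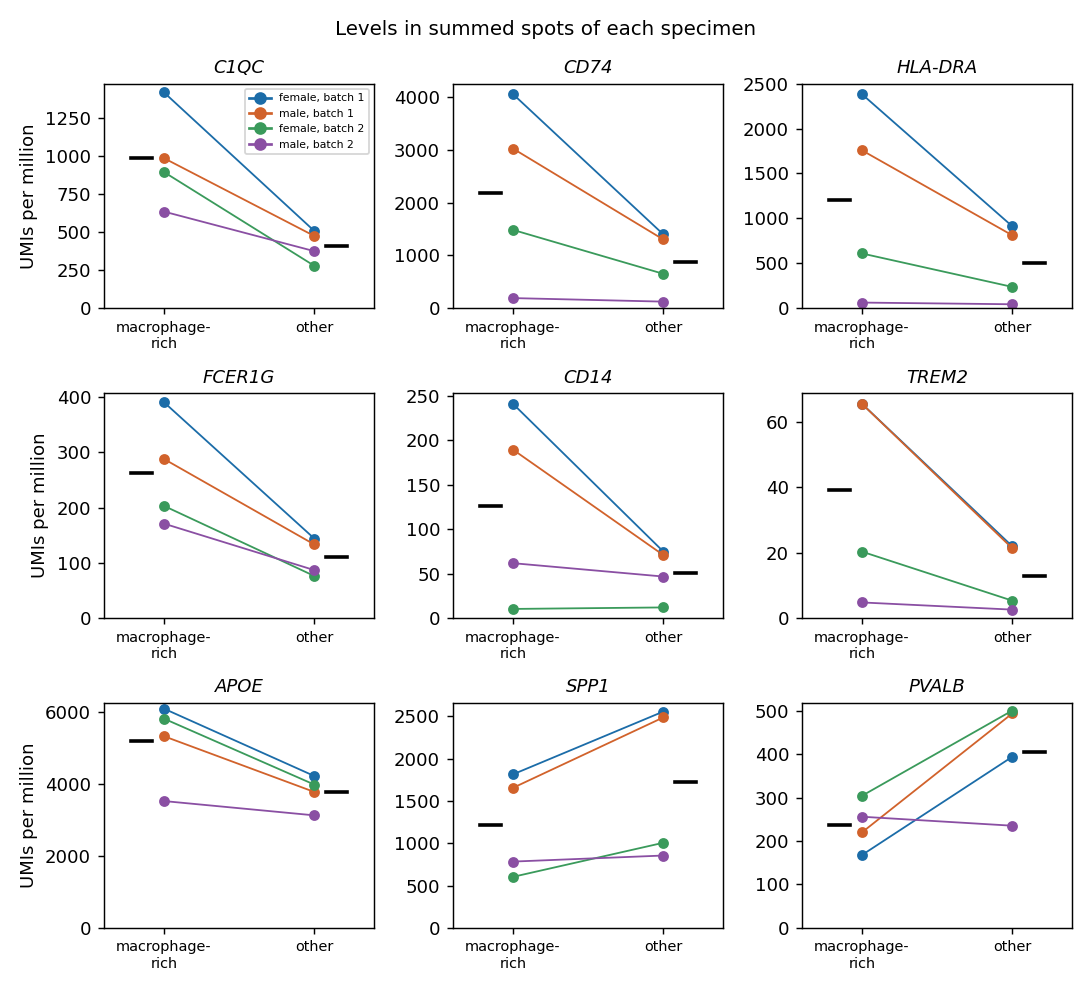
CPM of 9 genes in macrophage-rich (A) and other (B) spots, 1 point per specimen joined by a line, black bars for the mean of 4 specimens. C1QC, FCER1G and CD74 are higher in macrophage-rich spots in all 4 specimens, SPP1 is lower in all 4, and CD14 is not higher in F2, nor PVALB lower in M2.

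Genes of resident and perivascular macrophages rose in part. Of 7 tested genes 3 were higher, with a median log2 fold change of 1.18, and 4 of 7 in the depth-balanced classes, with a median of 1.00. F13A1, the coagulation factor XIII chain made by tissue macrophages, stood at 55.1 CPM in F1, 65.6 in M1, 20.3 in F2 and 9.49 in M2, against 23.2, 18.2, 4.36 and 7.84. Its log2 fold change was 1.54 (SE 0.28; 1.13 after balancing), with M2 close to its other spots. STAB1, a scavenger receptor, was higher by 1.45 and 1.00, and FOLR2, the macrophage folate receptor, by 1.97 and 1.21. FOLR2 had no UMI in the macrophage-rich spots of M2, and its call was lost without F1 (1.59). MRC1, the mannose receptor CD206, stood at 13.1, 7.02, 3.38 and 47.5 CPM, against 4.67, 4.47, 1.97 and 18.6. It missed the threshold in the whole-section classes (1.18; edgeR adjusted p = 0.061) and passed it after balancing (1.07; edgeR adjusted p = 0.028). CD209, TIMD4 and COLEC12 had no UMI in macrophage-rich spots.

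Of the genes linked to microglia, the macrophages of the central nervous system, 3 of 5 tested were higher in both forms of the classes, with medians of 1.15 and 0.65. Among them were GPR34 (1.15; 0.91 after balancing) and OLFML3 (1.51; 0.65), while CX3CR1 (1.23) and P2RY12 (0.71) did not pass. GPR34 stood at 68.2 CPM in F1, 44.5 in M1, 13.5 in F2 and 0 in M2, against 20.8, 20.4, 12.5 and 3.53, so it was higher in batch 1, nearly level in F2 and without a UMI in the macrophage-rich spots of M2. Without F1 the call of GPR34 (0.71) was lost. Fc receptor and activating-receptor signalling gave 4 of 7 genes higher, with a median of 1.28, and 2 of 7 after balancing, with a median of 0.74. FCGR1A, the high-affinity receptor for IgG, stood at 60.3 CPM in F1, 46.8 in M1, 30.5 in F2 and 28.5 in M2, against 17.3, 19.5, 5.05 and 12.5. It was higher in every specimen without overlap, by 1.64 (SE 0.27; 1.15 after balancing). The kinases SYK (1.33) and LYN (1.10) were called only in the whole-section classes, with 0.79 and 0.74 after balancing. The difference between the 2 forms was not tested. Of monocyte genes, 3 of 7 and 3 of 6 were higher, among them CD52 (1.57; 1.04) and PLAC8 (1.02; 0.72).

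Genes of antigen presentation by MHC class II were higher in both forms of the classes. Of 33 listed symbols 9 were found and 8 tested, and 7 were higher in both forms, with medians of 1.26 and 0.98. CD74, the invariant chain that escorts class II molecules, stood at 4055 CPM in F1, 3023 in M1, 1482 in F2 and 189.9 in M2, against 1396, 1299.7, 649 and 123. It was higher in 15 of 15 sections, by 1.22 (SE 0.12; edgeR adjusted p = 3.8e-10), or 1.00 (SE 0.06) after balancing. The range between specimens was wider than the difference between classes: the macrophage-rich spots of M2 lay below the other spots of F1, M1 and F2.

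HLA-DRA, the class II alpha chain, followed the same order, with 2384, 1758, 609 and 61.7 CPM against 911, 811, 236 and 42.9. It was higher by 1.23 (SE 0.12; 0.89 after balancing). HLA-DMA, which helps load peptides, stood at 91.8, 74.9, 67.7 and 9.49 CPM against 28.1, 22.03, 16.6 and 3.53, and was higher by 1.80 (SE 0.22; 1.17 after balancing). HLA-DRB5 (1.20; 0.97), HLA-DQA1 (1.33; 1.01), HLA-DMB (1.31; 0.68) and HLA-DOA (1.30; 1.02) were higher in both forms. In M2 HLA-DQA1 stood at 4.75 CPM against 6.27 and HLA-DOA at 0 against 0.392, so neither was higher there, and HLA-DOA was nearly level in F2 (3.38 against 3.02). HLA-DOA lost its call without section 3 of F1 (1.06). CIITA, the master regulator of class II genes, did not pass (1.14; 0.86). Near-identical class II genes can share reads, so single chains are uncertain. Whether shared reads also changed the level of the group was not tested. HLA-DRB1, HLA-DPA1, HLA-DPB1 and HLA-DQB1 were not found by symbol. The summed level of the 9 genes, as a mean over sections, was 7762 CPM in F1, 5847 in M1, 2522 in F2 and 370.2 in M2 in macrophage-rich spots, against 3046, 2682, 1099.6 and 245 in the other spots.

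Lipid-handling genes split. Of 13 tested genes 9 were higher and 1 lower, with a median of 0.67, and 6 were higher and 1 lower after balancing, with a median of 0.36. TREM2, a lipid-sensing receptor of macrophages, stood at 65.6 CPM in F1, 65.6 in M1, 20.3 in F2 and 4.75 in M2, against 21.9, 21.3, 5.28 and 2.55. TREM2 was higher by 1.62 (SE 0.27; 1.04 after balancing). APOE, a lipid carrier made by macrophages and glia, stood at 6098, 5331, 5820.5 and 3527 CPM against 4224, 3780.0, 3985 and 3129, with M2 the smallest rise. It was higher by 0.44 (SE 0.11; edgeR adjusted p = 0.0047) and by 0.53 (SE 0.04) after balancing. APOC1, another apolipoprotein, was higher by 0.90 and 0.77, NPC2, which moves cholesterol out of lysosomes, by 0.67 and 0.49, and LGALS3, galectin 3, by 0.70 and 0.38.

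SPP1, the secreted phosphoprotein osteopontin, was the lower gene of the lipid-handling list. It stood at 1815 CPM in F1, 1655 in M1, 602 in F2 and 783 in M2, against 2558, 2489, 1006 and 855. It was lower in every specimen, by -0.50 (SE 0.11; edgeR adjusted p = 0.0016) and by -0.44 (SE 0.05) after balancing. Without F1 the whole-section calls of APOE (0.41), SPP1 (-0.49) and the lipase LPL (0.44) were lost, and without M1 they were lost as well (0.42, -0.46 and 0.43). In M1 and M2 GPNMB was not higher (9.37 and 0 CPM against 10.96 and 4.70). GPNMB (1.19), the fatty-acid receptor CD36 (1.12) and the droplet protein PLIN2 (1.28) were called in the whole-section classes and not after balancing (0.36, 0.25 and 0.45), and GPNMB also lost its call without F1 (0.88) or F2 (0.98) or section 2 of F2 (0.92).

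In the complement list 7 of 13 tested genes were higher and 2 lower, and 8 and 2 after balancing, with medians of 1.03 and 0.49. Besides C1QC, the rises included CFP, the positive regulator properdin (1.44; 1.21), the receptors C3AR1 (1.03; 0.74) and C5AR1 (1.19; 0.79), the inhibitor SERPING1 (1.14; 0.49) and the protease C1S (0.81; 0.39). CFP was not higher in M2 (4.75 CPM against 6.08). SERPING1 stood at 419.7 CPM in F1, 369.9 in M1, 897 in F2 and 356 in M2, against 212, 171, 225 and 306, so that F2 was far above the others in macrophage-rich spots. The lower genes were CLU (-0.40; -0.18), a chaperone that blocks the terminal complement complex, and CD55 (-0.32; -0.18), which speeds the decay of complement convertases. CFP (1.22), C5AR1 (0.92), CLU (-0.31) and CD55 (-0.26) lost the whole-section call without F1, CLU (-0.38) and CD55 (-0.32) also without M1, and CD55 without F2 (-0.34) and without any of 8 single sections.

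Lysosomal genes, which nearly all cells express, did not move as a group. Of 22 tested genes 4 were higher and 3 lower, with a median of 0.03, and 5 and 1 after balancing, with a median of 0.12. CTSD, a major lysosomal protease, stood at 1456 CPM in F1, 1353 in M1, 1567 in F2 and 1234 in M2, against 1697, 1455, 1693 and 1291, and did not pass (-0.13, SE 0.11). The cathepsin gene CTSH was higher (0.86; 0.50), as were HEXA (0.59; 0.41) and the ceramidase gene ASAH1 (0.56; 0.38). CTSH lost its call without F1 (0.83). PSAP, the precursor of saposins, was lower in the whole-section classes (-0.34) but not after balancing (-0.07), and its call was lost without F1 (-0.34), M1 (-0.31) or F2 (-0.30). CTSB passed only after balancing (0.06; 0.19).

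Of the ligands and receptors that sustain macrophages, IL34, a ligand of CSF1R, was the one tested gene of 4 that rose. IL34 stood at 68.2 CPM in F1, 53.9 in M1, 50.8 in F2 and 61.7 in M2, against 32.8, 30.2, 16.6 and 33.3. It was higher in every specimen without overlap, by 1.06 (SE 0.21; edgeR adjusted p = 2.9e-04), and by 0.48 (SE 0.15; edgeR adjusted p = 0.033) after balancing. CSF1, the other ligand, did not pass (0.32; 0.23). Among signals between neurons and macrophages, 4 of 10 genes were higher, the bridging proteins PROS1 (1.37) and MFGE8 (0.68), the receptor MERTK (1.33) and TGFBR2 (0.93), and 0 of 10 after balancing (0.34, 0.24, 0.72 and 0.24). MERTK lost its whole-section call without F1 (0.97), and MFGE8 without M1 (0.65) or F2 (0.53). CX3CL1, CD200 and CD47, which are made by neurons and restrain or attract macrophages, did not pass, with values from -0.17 to 0.22.

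Chemokine ligands and receptors gave 8 of 12 genes higher and 1 lower, with a median of 1.01, and 5 of 11 and 1 after balancing, with a median of 0.70. CCL2, which attracts monocytes, stood at 212 CPM in F1, 258 in M1, 88.0 in F2 and 1519 in M2, against 143, 148, 64.3 and 1139, so M2 was far above the other specimens in both classes. CCL2 was higher by 0.56 (SE 0.12) and by 0.46 after balancing. CXCL10, an interferon-induced attractant of T cells, stood at 18.4, 18.7, 0 and 527 CPM against 12.6, 9.51, 0.755 and 311. It was higher by 0.73 and 0.75, in 3 of 4 specimens and not in F2, and its call was lost without M2 (0.67). CCR1 (1.88; 1.54), CXCL16 (1.20; 0.82) and CXCR4 (0.73; 0.54) were higher in both forms, and ACKR1, the chemokine-binding receptor of venules, was lower (-0.57; -0.42). CCR1 had no UMI in the macrophage-rich spots of F2. Without F1 the whole-section calls of CCL2 (0.55), CXCL10 (0.77), CCR1 (1.96), CXCR4 (0.67) and ACKR1 (-0.66) were lost, those of CCL2 (0.47), CXCR4 (0.75) and ACKR1 (-0.62) also without M1, and that of ACKR1 without F2 (-0.43) or any of 4 single sections.

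Inflammatory genes gave 6 of 11 higher, with a median of 0.99, and 2 of 12 after balancing, with a median of 0.39. CASP1, the protease that activates interleukin 1, stood at 91.8 CPM in F1, 93.7 in M1, 37.2 in F2 and 66.5 in M2, against 45.9, 39.0, 8.71 and 36.8, and was higher by 1.19 (SE 0.20; 0.86 after balancing). ALOX5AP, needed for leukotriene synthesis, stood at 63.0, 44.5, 54.1 and 28.5 CPM against 20.4, 20.2, 15.3 and 13.3, and was higher by 1.46 (SE 0.24; 1.16). Both were higher in each specimen. IL1B (1.50) was called in the whole-section classes and lost its call without F1 (1.25), without M1 (1.18) and after balancing (0.82). In M2 it was not higher (18.99 CPM against 20.6). Interferon-response genes gave 2 higher and 1 lower of 13, with a median of 0.17, and 1 after balancing, IFI27 (1.25; 0.40). Of 8 iron and haem genes 0 passed in either form, with medians of 0.02 and -0.02, and so did 0 of 4 proliferation genes (0 of 6 after balancing).

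Many whole-section rises belonged to connective tissue, vessels and myelin, and most of these shrank after balancing. All 14 tested fibroblast genes were higher, with a median of 1.28, but 7 were higher and 1 lower after balancing, with a median of 0.34. DCN, the matrix proteoglycan decorin, stood at 1424 CPM in F1, 1161 in M1, 687 in F2 and 214 in M2, against 639.5, 512, 185 and 109, and was higher by 1.32 (SE 0.12) and by 0.33 (SE 0.06). PI16, a marker of perivascular fibroblasts, stood at 291, 272, 0 and 0 CPM against 133, 96.4, 2.26 and 3.92, so its rise (1.25; 0.67) came from batch 1. SFRP4, a secreted Wnt antagonist, turned from 1.19 to -0.34.

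Mural genes of smooth muscle and pericytes gave 6 of 8 higher, with a median of 1.32, and 0 higher and 1 lower of 7 after balancing, with a median of 0.08. ACTA2, smooth muscle actin, turned from 1.03 to -0.53, and TAGLN went from 1.30 to 0.03. Myelinating Schwann cell genes gave 9 of 10 higher, with a median of 1.01, and 1 of 10, CRYAB (0.85; 0.24), after balancing, with a median of 0.08. Perineurial genes went from 3 of 4 higher to 0 of 4. CRYAB was lower in M2 (138 CPM against 207). Without F1 the whole-section call of CRYAB was lost (0.70), and 3 of 10 myelin genes and 11 of 13 fibroblast genes were called.

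Endothelial genes gave 3 of 9 higher, with a median of 0.70, and 1 of 10 after balancing, with a median of 0.39. That gene was EMCN, endomucin, a surface protein of capillaries and veins, which stood at 36.7 CPM in F1, 37.5 in M1, 6.77 in F2 and 4.75 in M2, against 13.7, 10.2, 2.56 and 3.14. It was higher by 1.56 and 1.03, and lost its whole-section call without F1 (1.64), without M1 (1.34) and without section 4 of M1 (1.12). VWF, the von Willebrand factor gene, was higher by 1.18 and missed the threshold after balancing (0.38; edgeR adjusted p = 0.068). PECAM1 did not pass (0.78; 0.30).

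**Figure D5:**
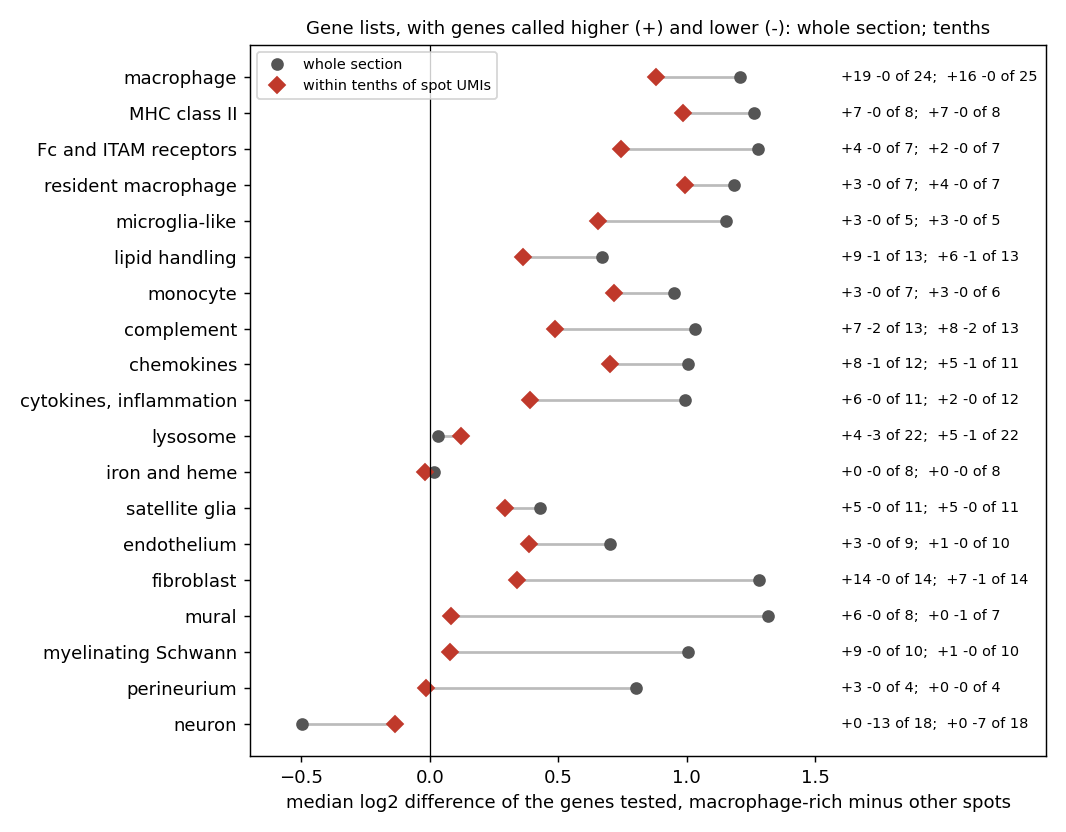
Median log2 difference between macrophage-rich and other spots for the tested genes of 19 lists, circles for whole-section classes and diamonds for classes balanced over 10 depth groups, with the counts of genes called higher and lower. Core macrophage and MHC class II lists keep medians of 0.88 and 0.98 after balancing, while mural and myelinating Schwann lists drop to 0.08.

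Satellite glia, the cells that wrap sensory neurons, kept their counts. Of 11 tested genes 5 were higher in each form, with medians of 0.43 and 0.29, and 2 of 11 without F1 or without M1 in the whole-section classes. The members differed: GLUL, the glutamine synthetase gene (0.65; 0.27), was among those called in both, while FABP7 (0.28; 0.33), the glutamate transporter gene SLC1A3 (0.53; 0.54) and ATP1B2 (0.09; 0.31) were called only after balancing. GLUL stood at 831 CPM in F1, 791 in M1, 538 in F2 and 826 in M2, against 485, 473, 324 and 651, higher in every specimen. The share of macrophage-rich spots that also reached the 95th percentile of the satellite glia score was 9.69% in F1, 10.4% in M1, 10.7% in F2 and 6.92% in M2, against 4.91%, 4.77%, 4.79% and 5.01% of the other spots. After balancing it was 13.8%, 9.42%, 14.96% and 6.89%, against 5.59%, 5.37%, 5.04% and 6.39%. It was the higher share in 4 of 4 specimens in both forms, and in 13 and 14 of 15 sections (exact permutation test, p = 0.125 in both, the smallest that 4 specimens allow).

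Neuronal genes were lower. Of 18 tested genes 13 were lower and 0 higher, with a median of -0.50, and 7 were lower and 0 higher after balancing, with a median of -0.13. NEFL, the light neurofilament chain, stood at 6085 CPM in F1, 5748 in M1, 4633 in F2 and 4789 in M2, against 9379, 8926, 8048 and 5251, and was lower by -0.55 (SE 0.12; -0.35 after balancing). PVALB, a calcium-binding protein of large proprioceptive neurons, stood at 168, 220.1, 305 and 256 CPM against 395, 495, 501 and 236, and was lower by -0.80 (SE 0.14; -0.64). M2 did not share the fall of PVALB, nor that of SNAP25 (1054 CPM against 1037). NEFH (-0.57; -0.35), STMN2 (-0.53; -0.19), SNAP25 (-0.67; -0.34), VSNL1 (-0.81; -0.44) and CALCA, the gene of the neuropeptide CGRP (-0.51; -0.18), were lower in both forms. SCN11A, a sodium channel of pain-sensing neurons, went from -0.57 to 0.03. Without F1, 2 of 19 neuronal genes were called in the whole-section classes and 6 of 19 in the depth-balanced ones, and the whole-section calls of NEFL (-0.52), STMN2 (-0.49), SNAP25 (-0.57), CALCA (-0.45), SCN11A (-0.40) and PVALB (-0.65) were lost. The call of NEFH was lost without M1 (-0.48).

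Spots high in both macrophage markers and neuronal genes were rare. Of macrophage-rich spots 0.00% in F1, M1 and F2 and 4.76% in M2 reached the 95th percentile of the neuron score, against 5.41%, 5.33%, 5.36% and 5.11% of the other spots. After balancing the shares were 1.19% in F1, 0.00% in M1, 0.50% in F2 and 3.18% in M2, against 6.39%, 5.92%, 5.91% and 6.63%. The share was the lower one in 4 of 4 specimens and, after balancing, in 15 of 15 sections (exact permutation test, p = 0.125, the smallest possible). A spot's score of 1 list is a share of its UMIs, so a high share of neuronal transcripts leaves less room for all others, and the part of this in the low overlap was not tested. Fibroblast-high spots made up 12.4% of macrophage-rich and 4.70% of other spots (9.88% and 5.67% after balancing), endothelium-high spots 10.6% and 4.80% (7.51% and 5.84%), mural-high spots 9.66% and 4.85% (7.41% and 5.83%) and myelin-high spots 7.84% and 4.95% (6.97% and 5.84%), each as the mean of 4 specimens, with exact permutation p-values from 0.125 to 0.5.

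Markers of other blood cells were measured in the same spots. The summed level of 16 T and NK cell genes ran from 28.1 CPM in M2 to 158 in F1, against 23.1 in F2 to 69.2 in F1, with TRAC and KLRD1 at 0. Of 9 tested genes 2 were higher, CD3D (1.49) and IL7R (1.27), and 0 of 8 after balancing (0.69 and 0.85 for these genes). Neither was higher in M2 (4.75 and 0 CPM against 6.47 and 5.68). CD3D lost its call without F1 (1.75), M1 (1.53), F2 (0.97) or either of 2 single sections, and IL7R without F1 (1.03), M1 (1.17) or any of 8 sections. The summed level of 10 granulocyte genes ran from 21.9 CPM in M1 to 737 in M2, against 23.8 in M1 to 543 in M2, with LTF, MPO, MMP8 and CXCR2 at 0. Its 2 tested genes, S100A8 (1.05; 0.45) and S100A9 (1.14; 0.37), which monocytes also express, were higher, and S100A8 stayed called after balancing. In M1 S100A8 was lower (4.68 CPM against 9.23). Without F1 both calls were lost (0.93 and 1.05), and that of S100A9 also without F2 (0.44). B cell genes summed to between 11.9 and 29.4 CPM, against 13.3 to 23.4, with MS4A1, CD79B, PAX5 and TNFRSF17 at 0, and mast cell genes to between 2.60 and 48.1 CPM, against 9.44 to 35.2. Of 9 listed red blood cell genes 3 were found, ALAS2, AHSP and SLC4A1, and the globin genes were not. Of these 3 genes, 1 UMI was seen in macrophage-rich spots. The other spots held 10, 20 and 0 UMIs of them, so they cannot tell how much blood a spot held. The part of these cells in the macrophage results was not tested.

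The largest changes by size were named by a rule over the called genes that moved the same way in 4 of 4 specimens and had at least 20 CPM in the class where they were higher. That minimum rests on the higher class alone, so it favours large changes, and the names are a description. The rises in the whole-section classes were led by IGF2 (log2 2.31; 0.63 after balancing), the growth factor, PTGDS (1.99; 0.49), a prostaglandin D2 synthase, PPM1M (1.89; 1.12) and MYOC (1.80; 0.61), myocilin. IGF2 stood at 36.7 CPM in F1, 28.1 in M1, 142 in F2 and 4.75 in M2, against 10.8, 10.9, 13.5 and 2.94, so F2 was far above the other specimens. Further rises were HLA-DMA, CASP4, an inflammatory caspase (1.73; 0.80), RASSF2 (1.66; 0.72), AOX1 (1.64; 0.27), FCGR1A, VSIG4, TREM2 and SEMA4A (1.60; 1.17), which lost its call without F1 (1.23). Of these 12 rises 9 were also called after balancing, and IGF2, RASSF2 and AOX1 were not. The largest falls were the kinase gene MAPK3 (-1.81; -0.14), SANBR (-1.44; -0.21), the mitochondrial magnesium channel gene MRS2 (-1.38; -0.73), EPB41L1 (-1.29; -0.45), TRIM46 (-1.24; -0.46), CDC42BPA (-1.23; -0.47), DPYSL4 (-1.21; -0.32) and C1orf216 (-1.18; -0.38). After balancing 2 of these 8 falls, MRS2 and C1orf216, were still called. Each fall rested on 11 to 37 UMIs in the macrophage-rich spots. The rises rested on 32 to 1588 there, with 32 for PPM1M, 33 for SEMA4A, 37 for CASP4 and 38 for RASSF2. In the lower class 10 of the 12 rises and 7 of the 8 falls had a mean under 20 CPM. All of these falls except C1orf216 lost the call without at least 1 specimen. MAPK3 did so without F2 (-0.94), SANBR (-1.28), DPYSL4 (-1.001), EPB41L1 (-1.21) and TRIM46 (-0.80) without M1, MRS2 (-1.18), EPB41L1 (-1.28), TRIM46 (-1.32) and CDC42BPA (-0.97) without F1, and CDC42BPA also without F2 (-1.01). Single sections ended the call of MRS2 (section 1 of M2, -1.15), CDC42BPA (section 3 of F1, -1.11) and TRIM46 (any of 4 sections).

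In the depth-balanced classes the rises named by the same rule were HLA-DMA (1.17), SERPINA1 (1.16), the alpha-1 antitrypsin gene that macrophages also make, ALOX5AP (1.16), FCGR1A (1.15), FXYD5 (1.08), SELPLG (1.07), the selectin ligand of leukocytes, PTPRC (1.07), FCER1G (1.06), TREM2 (1.04), RGS1 (1.02), a regulator of chemokine receptor signalling, C1QC (1.02) and CYBB (1.01). SERPINA1 had a mean of 52.8 ± 25.1 CPM (SD, n = 4) against 23.6 ± 9.07 and was higher in 14 of 15 sections. FXYD5 had 55.03 ± 22.3 against 27.2 ± 11.9 and was higher in 15 of 15. The falls were the synaptotagmin gene SYT3 (-0.98), SMPX (-0.86), MRS2 (-0.73), ANKRD37 (-0.73), SCO2 (-0.68), TESC (-0.65), PVALB (-0.64) and CLEC2L (-0.62). CLEC2L had 142 ± 54.8 CPM against 221 ± 56.4 and was lower in 15 of 15 sections.

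In the spots next to macrophage-rich ones few genes of any kind passed the test. Of the other spots, 1943 had at least 1 macrophage-rich spot among their 6 nearest positions, and 6154 had none among the 18 positions of the first and second ring. The edgeR test called 39 of 10024 genes (0.389%), 38 higher (0.379%) and 1 lower (0.00998%), and 815 had an unadjusted p under 0.05. Without F1 the count was 10, without M1 17 and without F2 77, and it was 77 without section 1 of F2, 21 without section 4 of M1 and 25 without section 4 of F2. Of 24 core macrophage genes 0 were called, with a median of 0.11, and 17 had fitted values above 0. With 0.379% of all genes called higher, 0 of 24 does not set this list apart. Of 8 MHC class II genes 1 was called higher, and all 8 had fitted values above 0, with a median of 0.20. The rule kept both groups under the marker threshold, and its effect on genes that follow the markers was not tested. The 5 markers are given as a description with no test, since the rule had put all these spots under its threshold, and their values were 0.28 for C1QA, 0.20 for AIF1, 0.15 for CD163, 0.11 for CSF1R and 0.09 for CD68. C1QA stood at 96.7 CPM in F1, 75.1 in M1, 65.1 in F2 and 44.0 in M2 beside macrophage-rich spots, against 70.4, 65.3, 59.9 and 32.9 farther away, above in every specimen.

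Beside macrophage-rich spots 5 of 10 myelinating Schwann cell genes were higher, with a median of 0.34. With depth-balanced classes 0 were higher, with a median of -0.09. The median depth per section, averaged by specimen, was 3403 ± 552 UMIs (SD, n = 4) beside macrophage-rich spots against 4129 ± 1303 farther away, lower in 3 of 4 specimens. With depth-balanced classes it was 4636 ± 1274 UMIs against 3355 ± 901, higher in each of the 4 specimens. Balancing the classes thus did not balance the depth of the spots compared here. The named rises included RELN (0.53), the secreted protein reelin, RAMP1 (0.50), a subunit of the CGRP receptor, and MYOC (0.48). They also included GJC3 (0.39), a gap junction gene of myelinating cells, and the laminin gene LAMB1 (0.33). With depth-balanced classes these genes stood, in that order, at -0.18, -0.16, -0.29, 0.17 and 0.07. The 1 lower gene with the whole-section classes, named because it was single, was RUNDC1. With depth-balanced classes 69 of 10548 genes were called (0.654%), 4 higher (0.0379%) and 65 lower (0.616%). The 4 higher genes, named because they were so few, were CD74, HLA-DRB5, APOC1 and METRN, while 10 of 14 fibroblast and 4 of 8 mural genes were lower, with medians of -0.39 and -0.46.

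Few genes differed between batches or sexes in how far the classes lay apart. A class by batch term was called for 12 of 9891 genes (0.121%) and a class by sex term for 10 (0.101%); 473 genes had an unadjusted p under 0.05 for each. PTGDS and MYOC were in both. PTGDS stood at 1157 CPM in F1, 1587 in M1, 1499 in F2 and 123 in M2 in macrophage-rich spots, against 461, 573, 116 and 56.4. Its log2 ratio was 3.68 in F2, against 1.32 in F1, 1.47 in M1 and 1.11 in M2, so F2 alone stood apart, and the fitted terms were 1.47 for batch 2 over batch 1 and -1.16 for male over female. The matrix genes MGP (1.55), AEBP1 (1.38) and PRELP (1.62) had positive batch terms, with the largest rise of each in F2, and AEBP1 rose less in M2 (0.74) than in F1 (0.77) or M1 (0.91). The sex terms of S100A8 (-1.64), S100A9 (-2.13) and the binding protein genes IGFBP4 (-1.10) and IGFBP6 (-0.99) were negative. For IGFBP6 the ratio was higher in M1 (1.18) than in F1 (0.92), and F2 had 2.94. With 1 specimen of each sex in each batch, sex and batch effects cannot be told apart from those of single specimens. Of the 12 batch genes 3 were also called after balancing, among them PTGDS (1.02), while MGP (1.09), AEBP1 (0.44), PRELP (0.13) and MYOC (0.70) were not. No gene of the class by sex term was called after balancing (0 genes). Leaving out single sections gave 1 to 25 calls for batch and 0 to 18 for sex, with 1 and 0 without section 3 of F1.

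The authors' deposited table gave for each gene and section Moran's I, a score that is higher when neighbouring spots have like values. Its 16 sections include section 3 of M2, which was not used for the classes of spot. Over these 16 sections C1QC had a median of 0.0648 and an adjusted p-value under 0.05 in 13 sections in the authors' deposited table. CD74 had 0.0706 with 12 sections in the authors' deposited table. The rule markers had lower scores there: C1QA 0.0178 (6 sections), CD163 0.0179 (7), CSF1R 0.0191 (5), CD68 0.00737 (3) and AIF1 0.00868 (3), in the authors' deposited table. They also had fewer UMIs than C1QC in the spots used here. CD163, the highest of them, had 754 in macrophage-rich and 6104 in other spots, against 1363 and 23054 for C1QC. The part of this in the scores was not tested. For comparison the authors' deposited table gave DCN 0.152 and CALCA 0.133, each with 15 sections. Among the 5 rule markers CD163 varied most, from 0.000228 in section 3 of F1 to 0.215 in section 2 of F1 in the authors' deposited table.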

How the data were processed

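UMI counts per gene and spot, spot positions and tissue flags (other values, not expression) were used as deposited by the authors. They were made with Space Ranger 2.0.0 (F1, M1) or 2.1.0 (F2, M2), per the file headers. The submitters' processing notes name the build Mmul_10, whereas the feature identifiers carry the *M. fascicularis* prefix, so no coordinates are given. Of 22000 features 6932 carried no symbol and stayed in totals and tests. Moran's I, a score per gene and section, and its p-value were deposited by the authors and were only described. Section totals over the spots used ran from 935169 to 6834515 UMIs. Any 2 sections differed by a chi-square of 3.39 to 43.0 per degree of freedom, so none were taken as the same library. The 56 to 1622 barcodes that pairs of sections shared mark array positions, not the same spots.

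Counts were summed per specimen and class, and tested with edgeR 4.0.16 (R 4.3.3): filterByExpr, TMM, quasi-likelihood test, specimen as a block, Benjamini-Hochberg over all genes tested. The pairing comes from the design, since both classes lie in the same sections. CPM were computed over all features. Rule markers stayed in the library sizes but outside the calls. Spot shares and depths were compared as means over sections by exact two-sided permutation (sign flips) over 4 specimens. Other classes of spot used the same 95th percentile on their own lists. Levels of different genes are not comparable with each other. Named genes were, per list, up to the 4 highest tested members and any called member, and, over all genes, the 12 largest rises and 8 largest falls (6 rises beside) that passed, moved the same way in 4 of 4 specimens and reached 20 CPM in the higher class. The spots, 33 gene lists and tests were chosen with earlier results of these data known. Steps were tested on simulated data. Alternatives were DESeq2 1.42.0, limma 3.58.1 (voom), other filters, thresholds, markers and depth groups, and leaving out each section or specimen. A count of 0 UMIs is not evidence of absence at these depths. Some named genes that met these rules are not reported here.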

Additional observations from a re-analysis of the deposited data

Results flagged for a closer look

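Among 187 groups of 4 tested for a specimen or section standing apart, 16 had one, where chance gives about 1 in 20 groups. In section 1 of F2 macrophage-rich spots lay at the tissue edge 17.3 percentage points more often than the other spots. M2 was the specimen in which neuron-high spots were nearly as frequent in both classes, at -0.35 percentage points. The log2 ratio of a specimen, macrophage-rich over other spots, stood apart in M2 for APOE (0.17), ASAH1 (0.38), IL1B (-0.11), GLUL (0.34), SNAP25 (0.023), ZFP36 (0.030) and IL7R (-2.74). It stood apart in F2 for OLFML3 (2.41), CTSH (0.47), PTGDS (3.68) and RASSF2 (2.22), in M1 for CD47 (0.45) and C1orf216 (-1.89), and in F1 for SEMA4A (2.16).

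The difference between the classes differed between batches by the edgeR test of the class by batch term for 12 genes. The log2 difference of the fold changes, batch 2 over batch 1, was 3.83 for CCL26, a chemokine, 1.82 for ENSMFAG00000060234, 1.86 for ENSMFAG00000061550, 2.00 for ENSMFAG00000062312, 1.49 for ECRG4, 1.61 for ANGPTL7, 1.55 for MGP, 1.38 for AEBP1, 1.47 for PTGDS, 1.62 for PRELP, -2.30 for MED21 and 1.22 for MYOC. CCL26 stood at 217 CPM in the macrophage-rich spots of F2 and at 0 in those of M2. After balancing 9 of the 12 were no longer called, CCL26 (2.09) among them.

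It differed between sexes for 10 genes. The log2 difference, male over female, was -3.05 for ENSMFAG00000037799, -1.81 for PLA2G2A, a secreted phospholipase, -1.16 for PTGDS, -1.10 for IGFBP4, -2.13 for S100A9, -1.64 for S100A8, -0.99 for IGFBP6, -1.23 for CHI3L1, -1.12 for MYOC and -1.04 for ENSMFAG00000061550. ENSMFAG00000037799 stood at 181 CPM against 22.4 in F1, and at 28.1 against 33.1 in M1.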

How the results depend on the processing

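With DESeq2 the whole-section comparison gave 766 calls, and without the replicate block, which ignores that both classes come from the same sections, 0 (the edgeR fit with the block had 2557 genes at an unadjusted p under 0.05). Balancing over 10 depth groups gave 738, with 340 to 859 when a specimen was left out, and leaving out a section or specimen of the whole-section comparison gave 380 to 1877. Beside macrophage-rich spots there were 22 calls with DESeq2, 19 with sections as samples and the section as the replicate block, and 0 without a replicate block. There were 69 with the depth-balanced classes and 10 to 77 with a section or specimen left out. Sections as samples with the section as the replicate block gave 1482 calls of 6363 genes for the whole-section comparison. The batch term ranged from 1 to 25 calls and the sex term from 0 to 18, with 0 for sex after balancing. CD68 in spots chosen by C1QA ranged from 0.75 to 1.10. The depth difference was -325 UMIs with 3 depth groups and -50.3 with 10, and that of genes per spot, -772 in the whole-section classes, was -124.5 and -22. Endothelium-high spots differed by 1.67 percentage points with 10 depth groups, and satellite glia-high spots by 10.3 at a minimum of 2000 UMIs and 7.05 with 3 depth groups. SFRP4 turned to -0.34 and SLC2A1 to -0.047 with 10 depth groups, SCN11A to 0.030, and ACTA2 to -0.53, to -0.36 with 3 and to -0.13 at 2000 UMIs. The cause of these changes was not tested. Of 122 named genes called, 11 lost the call without at least 1 section and 58 without at least 1 specimen. Few molecules per spot limit the class of a single spot, since 2 marker UMIs sufficed in 30.7% of macrophage-rich spots, and 4 specimens limit every exact test to p = 0.125 or above.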

Other observations

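Immediate early genes, which cells switch on within minutes of a stimulus or of handling, were higher in part in macrophage-rich spots. Of 9 tested genes 5 were higher, with a median log2 fold change of 0.48, and 2 of 9 in the depth-balanced classes, with a median of 0.04. NR4A1 (0.68; 0.37 after balancing) and ZFP36 (0.75; 0.33), which destabilises inflammatory transcripts, were called in both forms, while FOS (0.62; 0.03), DUSP1 (0.48; 0.04) and KLF4 (1.11; 0.29) were called in the whole-section classes. Without F1 the whole-section calls of FOS (0.48) and ZFP36 (0.61) were lost.

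Genes of nonmyelinating Schwann cells gave 3 of 6 lower, the adhesion molecules NCAM1 (-0.38) and L1CAM (-0.64) and the neurotrophin receptor NGFR (-0.45), all of which neurons also express, and 0 of 6 after balancing (-0.01, -0.11 and -0.07). NGFR lost its whole-section call without F1 (-0.42) and without M1 (-0.45). Of 13 listed genes linked to nerve injury 8 were found by symbol and 4 tested. ATF3, SOX11, SPRR1A and GAL were not found, so they were not measured. Of the 4 tested genes 0 passed in either form, JUN (0.26; -0.02) and GADD45A (-0.48; -0.35) among them. The adipocyte gene FABP4, also a gene of capillaries, was higher in the whole-section classes (1.12) and not after balancing (-0.10).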
